A study of Mus musculus with 4 samples.

Results

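The 33 mature miRNAs described here come from 17 hairpins that lie between Gtl2 (also named Meg3) and Rian on mouse chromosome 12. They were taken from a table of 942 mature miRNAs by name, as miR-770, miR-673, miR-493, miR-337, miR-540, miR-665, miR-431, miR-433, miR-127, miR-434, miR-432, miR-136, miR-3070, miR-3071, miR-341, miR-1188 or miR-370, with any letter, copy and arm. Of these 17 names, 16 had a row and miR-432 had none. The choice used names and no measured value, though it was made with earlier results of these data known. Small RNA of the brain cortex was sequenced from 4 mice of the strain B6C3 at 9 months of age. WT1 and WT2 were wild-type (WT), and APP3 and APP4 carried both the APPswe and the PS1deltaE9 transgene (AD mice), which are expressed in neurons of the central nervous system and model the amyloid deposition of Alzheimer's disease. APP4 was a sibling of WT1 (group 1) and APP3 a sibling of WT2 (group 2), so a sibling pair compares 2 libraries and a genotype has 2 mice. Whole cortex was used, so fewer cells of a type and less RNA per cell cannot be told apart.

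These hairpins belong to the imprinted Dlk1-Dio3 region. In this region the chromosome inherited from the mother expresses a series of long noncoding RNAs, Gtl2, anti-Rtl1, Rian and Mirg, which carry miRNAs and snoRNAs, and the paternal chromosome expresses protein-coding genes, among them Dlk1 and Rtl1. A miRNA is cut from its hairpin as a pair of arms, 5p and 3p, of which usually a single arm is kept in the silencing complex, and its seed at bases 2 to 8 does most of the target recognition. The miRNAs of the region are known for their high levels in brain and placenta. Those antisense to Rtl1 are fully complementary to its mRNA and direct its cleavage, which is a textbook case of a miRNA and its target transcribed from opposite strands.

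The mature sequences that carry the results are given first, from RefSeq on GRCm38.p6, with the seed in capitals. All 33 miRNAs matched a RefSeq entry. The 10 arms of the 5 hairpins antisense to Rtl1 hold nearly all reads of the locus:

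miR-431-5p: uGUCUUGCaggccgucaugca
miR-431-3p: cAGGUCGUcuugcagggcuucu
miR-433-5p: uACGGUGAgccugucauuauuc
miR-433-3p: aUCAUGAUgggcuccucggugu
miR-127-5p: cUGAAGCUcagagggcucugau
miR-127-3p: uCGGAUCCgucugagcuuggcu
miR-434-5p: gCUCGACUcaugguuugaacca
miR-434-3p: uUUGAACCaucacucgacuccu
miR-136-5p: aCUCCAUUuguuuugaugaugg
miR-136-3p: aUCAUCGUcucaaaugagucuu

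The following arms outside the Rtl1 hairpins are those whose value in each mouse is described:

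miR-673-5p: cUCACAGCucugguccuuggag
miR-673-3p: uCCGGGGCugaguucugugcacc
miR-665-3p: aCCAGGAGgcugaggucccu
miR-341-3p: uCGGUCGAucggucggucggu
miR-1188-5p: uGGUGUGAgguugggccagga
miR-370-5p: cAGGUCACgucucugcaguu
miR-370-3p: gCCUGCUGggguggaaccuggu

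The last set shows the copies of miR-3070, whose 5p arms cannot be told apart by sequence:

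miR-3070a-5p: aGCCCCUGaccuugaaccuggga
miR-3070b-5p: aGCCCCUGaccuugaaccuggga
miR-3070a-3p: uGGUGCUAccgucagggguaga
miR-3070b-3p: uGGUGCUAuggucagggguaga

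Each of the 10 arms of the first set had a perfect complementary site in the coding sequence of the Rtl1 transcript. The 33 miRNAs had 31 distinct seeds, and the only seeds shared among them were those of miR-3070a and miR-3070b. Some seeds were also found in a miRNA outside these 33. That of miR-370-5p was found in miR-1193-3p, which belongs to the Mirg cluster of the same region. That of miR-540-3p was found in miR-6915-5p and that of miR-673-5p in miR-6985-3p. The 5p arms of miR-3070a and miR-3070b were identical over all 23 nt, so the split of their reads is a counting choice. Their 3p arms differed at 2 positions. Every other miRNA of the locus differed from its nearest mature sequence by at least 4 bases, the closest being the repetitive arms of miR-341. miR-434-5p and miR-434-3p share a stretch of 9 nt, UUUGAACCA, at the end of the 5p arm and the start of the 3p arm. The median GC content was 57.7% over the 33 miRNAs and 50% over the 754 of the table with a RefSeq sequence. Where the mean reached 10 RPM (reads per 1000000 miRNA reads of a library), it was 58.1% for 20 of the locus and 47.8% for 326 in all. A first base U was found in 39.4% of the 33 and 37.1% of the 754.

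On GRCm38 the hairpins span 54645 bp, from 109563692 to 109618336. Mir770 overlaps an exon of Gtl2 (109541001 to 109571726) on the same strand. Mir673, Mir493, Mir337, Mir540, Mir665, Mir3070a and Mir3070b lie between annotated genes, downstream of Gtl2. Mir431, Mir433, Mir127, Mir434 and Mir136 are opposite to the coding exon of Rtl1, which runs on the minus strand from 109589193 to 109600330. Mir341, Mir1188 and Mir370 lie in an intron of Rian (109603940 to 109661716). Mir3071 is annotated on the minus strand across Mir136, so it is not on the maternal transcripts, and only 1 read in APP3 was counted on it.

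The libraries held 26085776 miRNA reads (WT1) and 22078713 (WT2) in the WT mice and 21266937 (APP3) and 19048747 (APP4) in the AD mice. At these depths 3 reads equal 0.115 to 0.157 RPM. The neuronal markers (miR-9, miR-124, miR-128 and miR-138) summed to 74067 to 81737 RPM, and on miRNA reads this sum did not separate the genotypes. Singly, 3 of these 10 miRNAs were higher in both AD mice and 0 were lower. APP4 stood apart in the sum of 19 miRNAs of choroid plexus and epithelia, at 8812 RPM against 4311 to 4966 RPM in the other mice. Singly, 3 of these 19 were higher in both AD mice and 1 was lower. APP4 also had the lowest sum for blood (5 miRNAs, 3242 RPM against 4017 to 4658). Singly, 1 of these 5 was lower in both AD mice and 0 were higher. Summed vessel markers (7 miRNAs) were lower in both AD mice (30066 in APP3 and 24449 in APP4) than in the WT mice (31436 and 32520 RPM). Singly, 3 of these 7 were lower in both AD mice and 2 were higher. On miRNA reads the summed oligodendrocyte markers (5 miRNAs) were higher in both AD mice (2176 and 2280 RPM) than in the WT mice (1910 and 2166). Singly, 1 of these 5 was higher in both AD mice and 0 were lower. The sum of microglia and leukocytes (5 miRNAs) overlapped (1121 to 1309 RPM), while 3 of its miRNAs were higher in both AD mice and 0 lower. None of the markers was at 0 in all libraries, and the part of these differences in the results was not tested. TMM, a scaling that takes the typical miRNA as unchanged, lowered the values of APP4 by 0.18 on the log2 scale relative to WT1. Values from APP4 are therefore also given with TMM where that changes a statement. With TMM the neuronal sum was lower in both AD mice than in both WT mice, and the oligodendrocyte sums of the genotypes overlapped.

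The miRNAs of the locus made up a large part of cortical miRNA, almost entirely through miR-127-3p. Together the 33 took 19.2% of the reads of each WT mouse (95% Wilson intervals 19.15 to 19.18 for WT1 and 19.20 to 19.23 for WT2), which cover counting error only. They took 22.1% (22.05 to 22.09) of those of APP3 and 16.7% (16.67 to 16.71) of those of APP4. The AD mice lay on both sides of the WT mice, so the genotypes did not separate in this sum. The mean was 191931 ± 339 RPM (SD, n = 2) in WT and 193792 ± 38041 RPM in AD. The log2 difference was 0.01, and -0.08 with TMM. An exact permutation test of 2 against 2 mice cannot give a p under 0.333, so no p is given for the sums. The 73 miRNAs of the Mirg cluster, the next group of the region, summed to 41068 RPM (WT1) and 37230 (WT2) in the WT mice and 39777 (APP3) and 41028 (APP4) in the AD mice, and their genotypes overlapped as well.

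**Figure D1:**
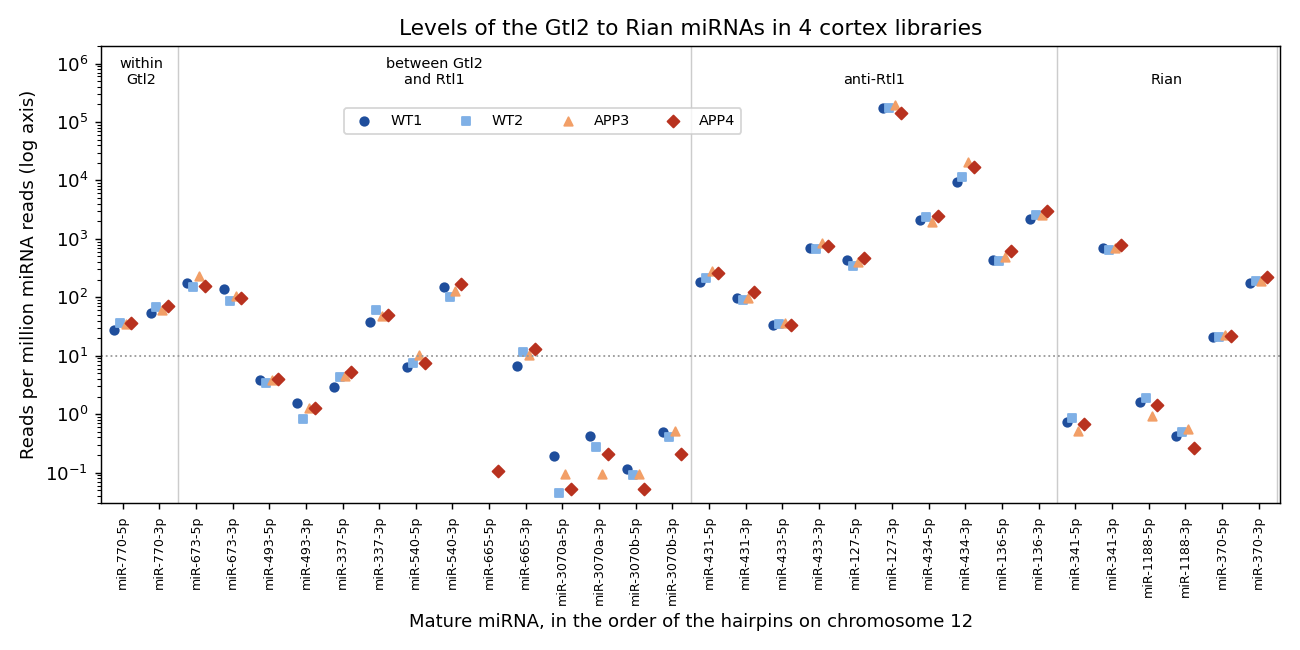
RPM (log axis) of 32 mature miRNAs of the locus in the 4 libraries, in the order of their hairpins, with values at 0 reads and miR-3071-3p (1 read) left out and a dotted line at 10 RPM. The hairpins opposite to Rtl1 reach the highest values, with miR-127-3p at 140548 RPM or more in every library.

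Levels within the locus differed by orders of magnitude. Of the 33 miRNAs, 31 had a read in every library, 20 had a mean of at least 10 RPM, 14 at least 100 and 4 at least 1000, while 8 had less than 1 RPM. The 4 above 1000 RPM were miR-127-3p, miR-434-3p, miR-136-3p and miR-434-5p, all opposite to Rtl1. By contrast the hairpins between Gtl2 and Rtl1 summed to 523 RPM (WT1) and 430 (WT2) in the WT mice and 539.1 (APP3) and 510 (APP4) in the AD mice over 14 mature miRNAs. Mir770, within Gtl2, gave 82.4, 104, 95.4 and 107 RPM in the same order. The hairpins in Rian gave 891, 857, 906 and 1025 RPM. The ranges of these groups over the 4 libraries did not overlap, and their order from high to low was the same in each mouse: anti-Rtl1, Rian, the stretch between Gtl2 and Rtl1, and Gtl2. Neighbouring hairpins still differed, as Mir540, at 109 to 180 RPM, lies beside Mir665, at 6.59 to 13.1 RPM.

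miR-127-3p ranked first of all miRNAs in each library. It had 174719 RPM (WT1) and 172740 (WT2) in the WT mice and 191418 (APP3) and 140548 (APP4) in the AD mice, which was 84.2 to 91.1% of the reads of the locus. The WT mice differed little and the AD mice lay on either side of them, with APP4 the lowest. The edgeR log2 fold change of AD over WT was -0.19 (SE 0.26, adjusted p = 0.958), and without APP4 it was 0.06. Within the groups miR-127-3p went in opposite directions, -0.31 in group 1 and 0.15 in group 2 on the log2 scale, and the difference between both AD mice (-0.45) was the largest of its differences. The other arm, miR-127-5p, had 428 RPM (WT1) and 337.8 (WT2) in the WT mice and 400 (APP3) and 471 (APP4) in the AD mice. On miRNA reads it was highest in APP4, where miR-127-3p was lowest, but with TMM it was highest in WT1.

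miR-434-3p was the miRNA of the locus that separated the genotypes most. Its level was 9314 RPM (WT1) and 11327 (WT2) in the WT mice and 21035 (APP3) and 16971 (APP4) in the AD mice, which was rank 21 and 19 of all miRNAs in the WT mice and rank 11 and 13 in the AD mice. Both AD mice were above both WT mice, with means of 10320 ± 1423 RPM in WT and 19003 ± 2874 in AD (SD, n = 2). The AD mouse was 1.82-fold higher in group 1 (log2 0.87) and 1.86-fold higher in group 2 (log2 0.89), while the WT mice differed by 0.28 and the AD mice by -0.31 on the log2 scale. With TMM the group 1 value was 0.68. The choroid plexus and epithelial markers summed to 8812 RPM in APP4 and 4527 in WT1 in group 1, and to 4311 RPM in APP3 and 4966 in WT2 in group 2. On miRNA reads the vessel sum was lower and the oligodendrocyte sum higher in both AD mice, the latter by little (2176 RPM in APP3, 2166 in WT2). With TMM the oligodendrocyte sums of the genotypes overlapped, and the neuronal sum was lower in both AD mice. The part of these markers in the difference of miR-434-3p was not tested. Over the 4 mice edgeR gave a log2 fold change of 0.76 (SE 0.22, unadjusted p = 0.0101, adjusted p = 0.768), which does not pass the threshold over the 623 miRNAs tested. With the sibling pair as a block the value was 0.74 (edgeR adjusted p = 0.198), and DESeq2 gave 0.78 (adjusted p = 0.189). Leaving out each mouse in turn gave 0.52 to 0.95.

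miR-434-5p, cut from the same hairpin, did not follow. Its level was 2080 RPM (WT1) and 2404 (WT2) in the WT mice and 1926 (APP3) and 2498 (APP4) in the AD mice. On miRNA reads each AD mouse therefore lay outside the WT range on a different side. With TMM only APP3 lay outside the WT range of miR-434-5p. Its edgeR log2 fold change was -0.16 (SE 0.18, adjusted p = 0.958, from -0.30 without APP4 to -0.042 without APP3), and in the groups it was 0.26 and -0.32. The share of Mir434 reads on the 3p arm was therefore 81.7% (WT1) and 82.5% (WT2) in the WT mice and 91.6% (APP3) and 87.2% (APP4) in the AD mice. This ratio does not depend on library size, and it was higher in both AD mice. The log2 ratio of 3p to 5p reads was 2.16, 2.24, 3.45 and 2.76, a difference of 0.91 (SE 0.34) between the genotypes in limma (unadjusted p = 0.0246, adjusted p = 0.654 over 179 hairpins). With the sibling block the adjusted p was 0.142, and without APP3 the difference was 0.56.

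**Figure D2:**
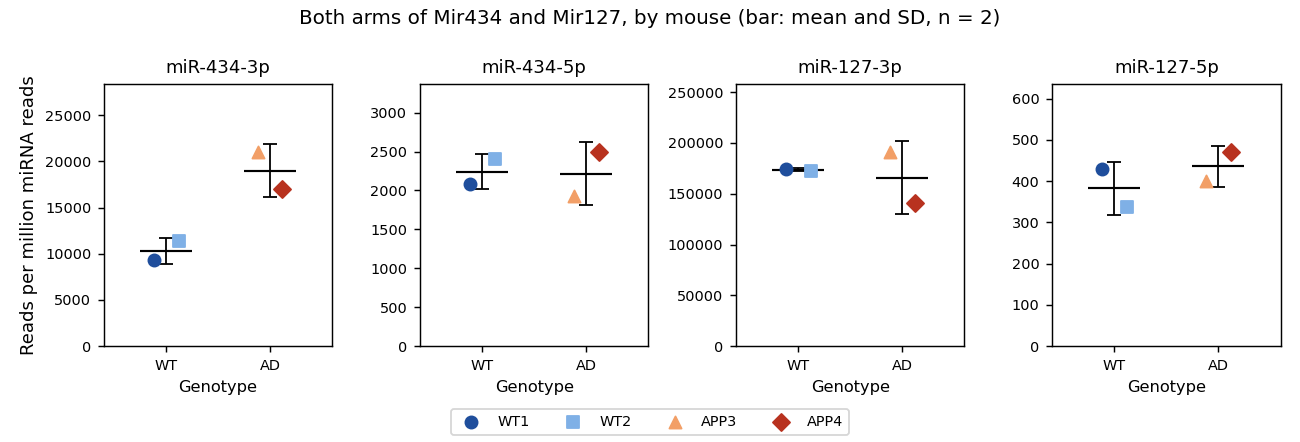
RPM of both arms of Mir434 and Mir127 in each mouse, with the mean and SD of each genotype (n = 2) as horizontal and vertical bars and all axes starting at 0. miR-434-3p is the only arm of the 4 in which both AD mice lie above both WT mice.

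Without miR-127-3p the locus was higher in both AD mice, and most of that difference was miR-434-3p. The other 32 miRNAs summed to 16972 RPM (WT1) and 19430 (WT2) in the WT mice and 29273 (APP3) and 26345 (APP4) in the AD mice, a log2 difference of 0.61 (0.51 with TMM). When miR-434-3p was left out too, the sums were 7658, 8104, 8238 and 9375 RPM, and the log2 difference was 0.16. With TMM library sizes APP3 lay slightly below WT2 in this last sum, so the genotypes overlapped. The sum without miR-127-3p was formed after its level in APP4 was seen.

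The remaining hairpins opposite to Rtl1 differed less between the genotypes. miR-431-5p, which has been linked to axon growth, had 181.7 RPM (WT1) and 212 (WT2) in the WT mice and 283 (APP3) and 257 (APP4) in the AD mice. Both AD mice were above both WT mice, also with TMM, and the log2 differences were 0.50 in group 1 and 0.42 in group 2, below the 1.5-fold limit. edgeR gave 0.33 (SE 0.20, adjusted p = 0.929), and 0.19 without APP3. Its other arm, miR-431-3p, had 97.1, 90.6, 96.1 and 121 RPM, and the genotypes overlapped.

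miR-136-5p had 440 RPM (WT1) and 423 (WT2) in the WT mice and 498 (APP3) and 612 (APP4) in the AD mice, with both AD mice higher under both scalings. The edgeR log2 fold change was 0.22 (SE 0.19, adjusted p = 0.958), and 0.12 without APP4. The more abundant arm miR-136-3p had 2193, 2551, 2593 and 2974 RPM, so APP3 exceeded WT2 by little, and with TMM its genotypes overlapped. miR-433-3p, a miRNA known to repress Fgf20, had 709 RPM (WT1) and 660 (WT2) in the WT mice and 865 (APP3) and 766 (APP4) in the AD mice. Its genotypes were apart on miRNA reads and overlapped with TMM, and edgeR gave 0.12 (SE 0.20, adjusted p = 0.967). miR-433-5p, at 33.7 to 36.9 RPM, was among the steadiest of the locus, and its edgeR value of -0.09 became 0.04 without TMM.

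Between Gtl2 and Rtl1 a few low miRNAs were called between single mice. miR-665-3p had 6.59 RPM (WT1) and 11.4 (WT2) in the WT mice and 10.2 (APP3) and 13.0 (APP4) in the AD mice. WT1 was the low library and the other 3 lay close together. It was called in group 1, at a log2 difference of 0.97 (counting SE 0.14), and also between the WT mice, at 0.79, but not in group 2, at -0.17. miR-665-5p had no read in 3 libraries and 2 reads in APP4. miR-673-5p had 176 RPM (WT1) and 150 (WT2) in the WT mice and 227 (APP3) and 158 (APP4) in the AD mice, and APP3 alone was high. It was called in group 2, at 0.60 (counting SE 0.03), and lay at -0.16 in group 1. miR-673-3p had 137 RPM (WT1) and 87.96 (WT2) in the WT mice and 104 (APP3) and 98.9 (APP4) in the AD mice, with WT1 the highest, and was called between the WT mice at -0.64. The genotypes overlapped in all of these arms, and the edgeR log2 fold changes were 0.23 (SE 0.26) for miR-665-3p, 0.11 (SE 0.27) for miR-673-5p and -0.30 (SE 0.28) for miR-673-3p.

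In Rian the arms with a mean of at least 10 RPM varied little and those below it more. The latter rest on 5 to 42 reads a library, with counting SEs of 0.31 to 0.75 on the log2 scale between 2 mice. The part of counting error in their wider range was not tested. miR-341-3p had 689 RPM (WT1) and 642 (WT2) in the WT mice and 693 (APP3) and 780 (APP4) in the AD mice, and miR-341-5p had 0.517 to 0.861 RPM (edgeR log2 fold change -0.54, SE 0.40). miR-1188-5p, from 20 to 42 reads a library, had 1.61 RPM (WT1) and 1.90 (WT2) in the WT mice and 0.940 (APP3) and 1.42 (APP4) in the AD mice, below the WT mice in both. It was called in group 2 (log2 -0.998, counting SE 0.39, FDR = 0.0315) and not in group 1 (-0.17), and edgeR gave -0.72 (SE 0.32, adjusted p = 0.768). miR-370-3p had 178, 190, 188 and 221 RPM in the same order of mice. miR-370-5p, at 20.7 RPM (WT1) and 21.3 (WT2) in the WT mice and 22.6 (APP3) and 22.05 (APP4) in the AD mice, had the smallest range of the locus. Its highest library was 1.09-fold its lowest. The edgeR log2 fold changes were 0.00 (SE 0.18) for miR-341-3p, 0.01 (SE 0.19) for miR-370-3p and -0.04 (SE 0.20) for miR-370-5p, the last of which became 0.09 without TMM.

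The log2 range from the lowest to the highest library, over the 20 that averaged 10 RPM or more, had a median of 0.44. It was 0.49 for 41 miRNAs of the Mirg cluster and 0.48 for all miRNAs at that level. The widest ranges were those of miR-434-3p (1.18), miR-665-3p (0.97) and miR-540-3p (0.76), and only miR-434-3p among these had its high and low libraries split by genotype. miR-540-3p, chosen here for its range, had 148 RPM (WT1) and 102 (WT2) in the WT mice and 129 (APP3) and 172 (APP4) in the AD mice.

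**Figure D3:**
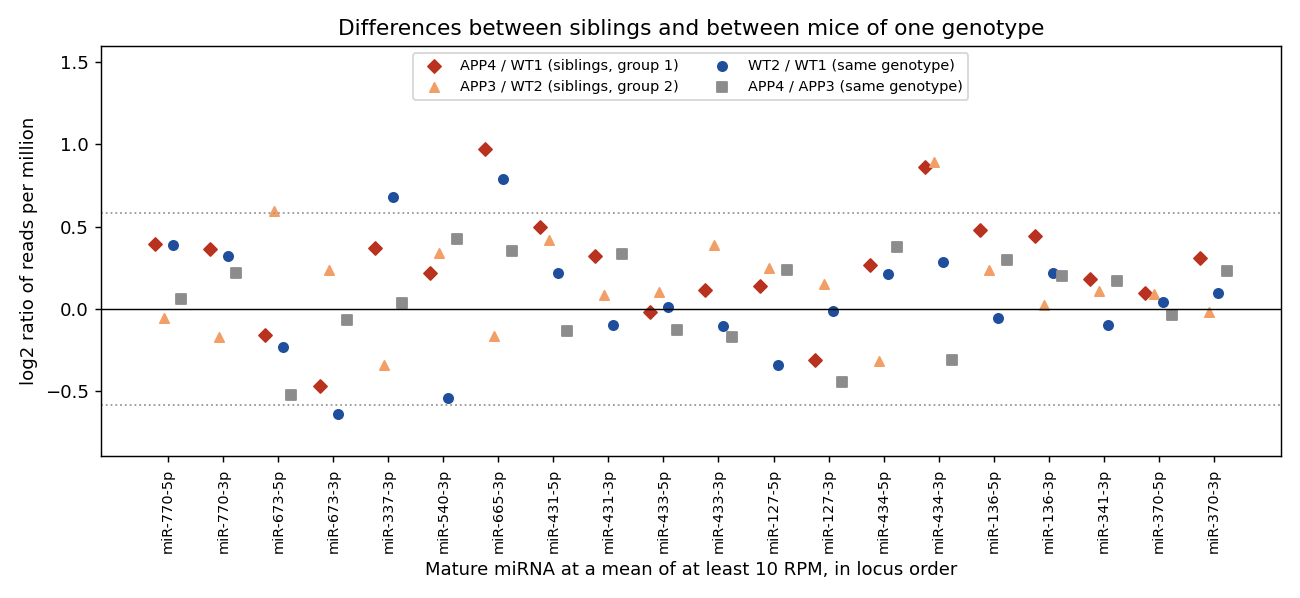
Log2 ratios of RPM between siblings (APP4 over WT1, APP3 over WT2) and between mice of the same genotype (WT2 over WT1, APP4 over APP3) for the 20 of the locus that averaged 10 RPM or more, with dotted lines at 1.5-fold. miR-434-3p alone lies above the upper line in both sibling pairs (0.87 and 0.89), and several other miRNAs differ as much between WT mice as between siblings.

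Calls were made in pairs of libraries by Fisher's exact test (two-sided) at a Benjamini-Hochberg false discovery rate (FDR) under 0.05 and at least 1.5-fold. In group 1, 3 of 32 miRNAs of the locus were called, all higher in APP4: miR-665-3p, miR-434-3p and miR-337-5p. Over all miRNAs 11.6% of 899 were called. With TMM library sizes there were 4, of which 3 were higher and miR-673-3p was lower. In group 2, 3 of 32 were called, against 6.81% of 896 in all. miR-673-5p and miR-434-3p were higher in APP3, and miR-1188-5p was lower. With TMM, miR-434-3p stayed higher, miR-1188-5p stayed lower and miR-673-5p was not called. The low miR-337-5p (75 reads in WT1 and 101 in APP4) and miR-1188-5p (42 reads in WT2 and 20 in APP3) are named after their values were seen.

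Calls were also made between mice of the same genotype. Between WT2 and WT1, 4 of 31 miRNAs of the locus were called (miR-665-3p, miR-337-5p and miR-337-3p higher and miR-673-3p lower in WT2), where 10.1% of all 879 were. Between the AD mice none of 33 was called by Fisher's test, where 8.05% of all 907 were called. An FDR under 0.05, without the fold limit, was found for 16 of the 33 and for 35.2% of all. miR-434-3p was the only miRNA of the locus called in the same direction in both sibling pairs, which makes 1 of 31. Of the 853 miRNAs tested in both pairs, 1.76% (15) were called so, and 9 were called in opposite directions, 0 of them in the locus. For the Mirg cluster the calls were 7 of 72 in group 1, 3 of 73 in group 2, 6 of 73 between the WT mice and 7 of 73 between the AD mice.

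Taking the 4 mice together, edgeR tested 28 of the 33 miRNAs and called none at an adjusted p under 0.05, as it called 0% of the 623 tested. At an unadjusted p under 0.05 it listed 1 of 28, miR-434-3p, where 5.78% of the 623 were listed. DESeq2 also called none. The median log2 fold change of AD over WT was 0.01 for the locus, 0.01 for 64 miRNAs of the Mirg cluster and -0.02 for all miRNAs tested. The limma test of arm ratios covered 11 hairpins of the locus and called none of them, as it called 0% of 179 hairpins. Mir434 was the only one with an unadjusted p under 0.05, where 7.26% of the 179 had one.

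Complete separation of the mice by genotype was counted over miRNAs averaging 10 RPM or more. Of 20 in the locus, 7 were higher in both AD mice than in both WT mice: miR-434-3p, miR-433-3p, miR-431-5p, miR-370-5p, miR-341-3p, miR-136-5p and miR-136-3p. None was lower. Over all miRNAs at that level 28% were higher and 7.92% lower, and 35% of the locus stood apart in either direction beside 35.9% of all. With TMM, 3 of the 20 (miR-434-3p, miR-431-5p and miR-136-5p) were higher and none was lower, where 15% of all were higher and 16.1% lower. In the Mirg cluster 13 of 41 were higher and 1 was lower on miRNA reads.

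The median log2 difference in group 1 was 0.29 over the 20 miRNAs, 0.24 over 41 of the Mirg cluster and 0.18 over all miRNAs at that level. With TMM these became 0.10, 0.06 and -0.00. In group 2 the medians were 0.11, 0.03 and 0.04 in the same order. Between the WT mice (WT2 over WT1) they were 0.03, 0.16 and 0.07. Between the AD mice (APP4 over APP3) they were 0.11, 0.13 and 0.09.

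In 13 hairpins the 3p arm had more reads on average and in 4 (Mir673, Mir493, Mir431 and Mir1188) the 5p arm had more. Few 5p reads were counted on Mir665 (0 to 2 a library) and Mir341 (11 to 19 a library, with 99.87 to 99.93% of its reads on the 3p arm). Of the 11 hairpins with a mean of at least 20 reads in each arm, Mir127 had the largest imbalance, with log2 ratios of 3p to 5p reads of 8.67 (WT1) and 9.00 (WT2) in the WT mice and 8.90 (APP3) and 8.22 (APP4) in the AD mice. Mir433 (4.38, 4.26, 4.55 and 4.51) and Mir540 (4.51, 3.74, 3.61 and 4.48) followed. Mir337 had 3.74, 3.80, 3.405 and 3.22, and Mir370 had 3.11, 3.16, 3.05 and 3.32. The smallest ratios in favour of the 3p arm were those of Mir770 (1.0005, 0.93, 0.81 and 0.97), whose 3p arm had 63.8 to 66.7% of the reads. The 5p arm led in Mir673 (-0.36, -0.77, -1.13 and -0.67). It also led in Mir431 (-0.90, -1.22, -1.56 and -1.08) and in Mir493 (-1.31, -2.07, -1.57 and -1.64), the latter from few reads, at a mean below 5 RPM in each arm. Mir136 lay at 2.32, 2.59, 2.38 and 2.28. Among these 11 hairpins the leading arm was the same in all 4 libraries. Both AD mice were outside the WT range on the same side in Mir434 and Mir433 (higher) and in Mir337 (lower, -0.46, SE 0.31, limma adjusted p = 0.989). That is 2 of 11 higher and 1 of 11 lower, where 17.3% of the 179 hairpins were higher and 11.2% lower.

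**Figure D4:**
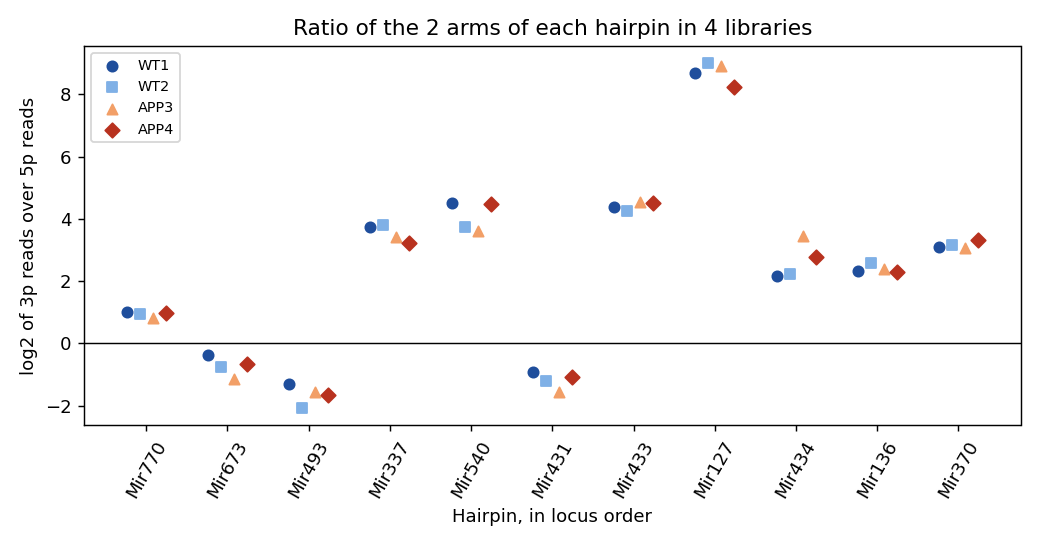
Log2 ratio of 3p to 5p reads of the 11 hairpins of the locus with a mean of at least 20 reads in each arm, in the 4 libraries, in locus order, with the line at 0 marking equal arms. Mir434 lies at 2.16 and 2.24 in the WT mice and at 3.45 and 2.76 in the AD mice, and every hairpin stays on the same side of 0 in all libraries.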

How the data were processed

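Total RNA of the cortex was made into TruSeq small RNA libraries, sequenced and, per the study's methods, matched to miRBase 19 with Bowtie and CLC, counting mature and variant reads of each miRNA. The authors deposited these read counts, not normalized, together with RPM, named TPM in the table, that are relative to all clean reads. The deposited RPM served only to recover the clean reads (22851004 to 31265701). The study names GRCm38, while the submitters' notes name mm9 and CASAVA 1.8, and the table holds no coordinates. Those given here are from GENCODE and RefSeq on GRCm38, matched by name.

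Counts were scaled to 1000000 miRNA reads of each library (RPM). Groups were taken from the sample labels and the sibling pairs from the study's methods. Fisher's exact test (scipy 1.17.1) compared 2 libraries over all miRNAs with a read, with 0.5 read added for folds. edgeR 4.0.16 (filterByExpr, TMM, quasi-likelihood, R 4.3.3) compared the genotypes, and limma 3.58.1 compared log2 arm ratios of hairpins with a mean of at least 20 reads in each arm. All were tested on simulated data. Each library is 1 mouse, and no 2 libraries agreed within sampling noise. Intervals and counting SE cover counting error only.

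The miRNAs, lists and tests were chosen with earlier results of these data known. Named with values were the 10 with the highest mean, those called by Fisher's rule in a sibling pair at 10 RPM or more, those whose genotypes did not overlap, their other arms and the hairpins with the 5 largest and 5 smallest arm ratios. Alternatives were TMM or clean reads as library sizes, counts scaled to 1000000, 10 RPM, 2-fold, Bonferroni, 5 reads added, DESeq2 1.42.0, no TMM, no filter, the sibling block and each mouse left out. The qRT-PCR and target predictions were not analysed here.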

Additional observations from a re-analysis of the deposited data

How the results depend on the processing

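With 2 mice per genotype, no exact test of a single value could pass 0.05, and the low miRNAs rest on few reads. In group 1 the count of called miRNAs of the locus went from 3 to 1 when counts were scaled to 1000000 and rounded, which left miR-434-3p. A limit of 2-fold gave 0 in group 1 and 0 in group 2. The summed log2 difference of the locus of 0.01 became -0.083 with TMM and ran from -0.20 (without APP3) to 0.20 (without APP4) when each mouse was left out. The sum without miR-127-3p kept its direction in all alternatives (0.52 to 0.71 when each mouse was left out). The miRNAs whose genotypes did not overlap went from 7 to 3 with TMM.

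No miRNA of the locus passed the adjusted threshold in any alternative of the edgeR test, the sibling block and DESeq2 included. The block, whose pairing comes from the study's methods and not from the labels, gave 0 calls among the miRNAs of the locus (2 of all 623) and 0 among its hairpins in the arm ratio test (4 of all 179). Siblings deviated from their genotype means with a correlation of 0.14 across miRNAs at 10 RPM or more. Of 17 named miRNAs with a genotype fold change, 6 kept their direction in all 8 alternatives (miR-431-5p, miR-434-5p, miR-434-3p, miR-136-5p, miR-136-3p and miR-341-5p). Without TMM, miR-433-5p became 0.042 and miR-370-5p 0.091. When each mouse was left out, the log2 fold change ran from -0.26 to 0.39 for miR-673-5p, from -0.59 to 0.11 for miR-673-3p, from -0.079 to 0.65 for miR-665-3p and from -0.052 to 0.16 for miR-431-3p. It ran from -0.23 to 0.023 for miR-433-5p, from -0.042 to 0.25 for miR-433-3p, from -0.13 to 0.27 for miR-127-5p and from -0.51 to 0.056 for miR-127-3p. It ran from -0.059 to 0.10 for miR-341-3p, from -0.13 to 0.026 for miR-370-5p and from -0.052 to 0.060 for miR-370-3p. Of those that kept their direction, it ran from 0.19 to 0.44 for miR-431-5p, from 0.12 to 0.30 for miR-136-5p, from 0.031 to 0.19 for miR-136-3p and from -0.30 to -0.042 for miR-434-5p. The cause of these changes was not tested.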
